A study of Mus musculus with 3 samples.

Results

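Plasmacytoid dendritic cells (pDCs) made up 170 of the 14226 cell barcodes kept from 3 single-cell RNA libraries of CD45+ cells sorted from mouse mammary tumours. They were chosen by the transcripts themselves. A barcode entered the pDC gate when it held at least 3 unique molecular identifiers (UMIs, each standing for 1 captured RNA molecule) of Siglech, Ccr9, Cox6a2 and Klk1 together. It also had to hold at most 2 UMIs of the complement genes C1qa, C1qb and C1qc, under 1% of its UMIs from S100a8 and S100a9, and no UMI of Cd3d, Cd3e or Cd3g. The levels of these 4 gate genes are therefore a description of the choice and not a finding.

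pDCs are the dendritic cells that detect viral and other nucleic acids with Toll-like receptors (TLRs) in their endosomes and answer with type I interferon. The transcription factor TCF4 holds the pDC programme in place, while ID2 favours the conventional dendritic cells (cDCs), which present antigen to T cells. In tumours, pDCs have been described mostly as cells that secrete little interferon.

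The study has 1 group of 3 libraries, called replicates 1, 2 and 3 here, and no treatment, genotype or time to compare. Cells of the 2208L mouse mammary tumour line were injected into the mammary gland of mice and grew for 4 weeks, and tumours were taken at 0.7 to 1 cm in diameter, dissociated and sorted for live cells bearing the leukocyte marker CD45. The labels name a 5′ platform and also a 3′ protocol, call the cell type tumor in spite of the CD45 sort, and do not say whether the libraries came from separate animals. The p-values below then measure only the spread between these samples, which may be technical. The comparisons that can be made are between cell classes within each library: pDCs against 216 cDC-gated barcodes (75, 103 and 38 per replicate), and pDCs against the other 13840 kept barcodes. A barcode entered the cDC gate with at least 2 UMIs of Xcr1 and Clec9a, or of Cd209a, or with a UMI each of Fscn1 and Ccr7, under the same exclusions, without Epcam and with at most 1 pDC gate UMI.

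Deposited depth ran from 9445914 to 15259236 UMIs per library. The pDC barcodes had medians of 2317.5, 2743 and 4431.5 UMIs in replicates 1, 2 and 3, and summed to 60539, 368058 and 104421 UMIs, so that 1 UMI is worth 16.5, 2.72 and 9.58 counts per 1000000 UMIs (CPM) of the pDC sums. cDC-gated barcodes had a median of 4328.5 UMIs and all others 1330.5. Between 25 and 37 barcode sequences occurred in each pair of libraries, and none of them was in the pDC gate in both. A doublet caller (Scrublet) marked 2 barcodes of all those kept, which is too few for it to have worked, and none of them was in the pDC gate.

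All 4 gate genes had a UMI in 106 of the 170 barcodes, 3 of them in 50 and 2 of them in 14. Siglech, a receptor that marks mouse pDCs, was found in 157 barcodes, Cox6a2, a subunit of cytochrome c oxidase, in 163, Ccr9, a homing receptor, in 149 and Klk1, a kallikrein, in 133. Just inside the threshold, 7 barcodes held 3 to 5 gate UMIs, with Bst2 at 4687 CPM over their sum. Just outside it, 4 barcodes held 2 gate UMIs, with Bst2 at 1083 CPM, and 76 held 1, with Bst2 at 371 CPM. A further 44 barcodes had 3 or more gate UMIs and failed an exclusion. Of these, 23 failed on C1q and 22 on Cd3 transcripts, all in replicate 2, and 11 failed on S100 transcripts, 10 of them in replicate 2.

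The label was checked against 15 pDC markers outside the gate, chosen, like the gene lists below, with earlier results of these data known. The check is therefore not independent of these data. All 15 markers had UMIs in the pDC sums. Together they stood at 13198, 11001 and 14997 CPM in replicates 1, 2 and 3, against 1678 to 2365 CPM in the cDC-gated sums, with no overlap. Bst2 and Irf8 had a UMI in 170 of 170 barcodes, Tcf4 in 148 (87.1%) and Irf7 in 126 (74.1%). Among markers of other cells, the 9 natural killer (NK) genes summed to 0, 5.43 and 0 CPM, and mast cell and erythrocyte markers had no UMI. Of 8 B cell markers 6 had none, and the other 2 summed to 33, 46.2 and 38.3 CPM. These sums overlapped the 3.57 to 68.8 CPM of cDCs and lay above the 19.3 to 25.6 CPM of all others. The 1 B cell marker tested was higher than in all others and did not pass against cDCs. Neutrophil markers stood at 644, 1011 and 172 CPM, macrophage markers at 379.9, 734 and 211 CPM and epithelial tumour markers at 16.5, 279.8 and 19.2 CPM, highest in replicate 2 in each case. The neutrophil list holds S100a8 and S100a9 and the macrophage list C1qa, C1qb and C1qc, all of which the pDC gate limits. Some lists of other cells stood higher in pDCs than in cDCs. The 8 monocyte markers summed to 8539.9, 7548 and 10611 CPM, above 1197 to 2407 CPM in cDCs and 1328 to 2275 CPM in all others. Most of that was Plac8 (5633, 5219 and 6713 CPM) and Ly6c2 (2478, 2029.6 and 3572 CPM), while Chil3 was at 0. The 10 T cell markers summed to 727, 592 and 1034 CPM, above 10.7 to 26.4 CPM in cDCs and below 1410 to 1647 CPM in all others. Most of that was Cd8a. Trbc2 was at 0, as were Cd3d, Cd3e and Cd3g, which the gate excludes. Plasma cell markers (8 genes, 3 at 0) summed to 446, 372 and 459.7 CPM, mostly Mzb1, against 8.12 to 128 CPM in cDCs and 91.9 to 136 CPM in all others. Stroma markers (7 genes) summed to 231, 264 and 249 CPM, mostly Cdh5, against 7.14 to 18.3 CPM in cDCs and 91.4 to 169 CPM in all others, with the 4 genes Col1a1, Col1a2, Col3a1 and Dcn at 0. The 8 cDC1 markers (3320.2, 2630 and 3572 CPM, largely Irf8) and the 8 cDC2 markers (1519.7, 994 and 1379 CPM, largely Cd7) overlapped the cDC range. The 10 migratory DC markers, at 49.6, 89.7 and 86.2 CPM, lay below it. Xcr1 and Clec9a of the cDC1 list, Cd209a of the cDC2 list and Ccr7 and Fscn1 of the migratory list select the cDCs. Their height in cDCs follows from that choice. The part of monocytes, T cells, plasma cells and stroma in the results was not tested. The B cell, NK cell, epithelial tumour, neutrophil and macrophage lists were used as a marker screen. In all, 79 of the 170 barcodes (10, 58 and 11 per replicate) held at least 2 UMIs of 1 of these lists, mostly of neutrophils (50 barcodes) or macrophages (39). Some gene groups below are therefore also counted over the other 91 barcodes, and counts of the rest over these 91 are not given. These 91 can still hold 1 UMI of a screened list, and markers of the other lists were not screened.

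**Figure D1:**
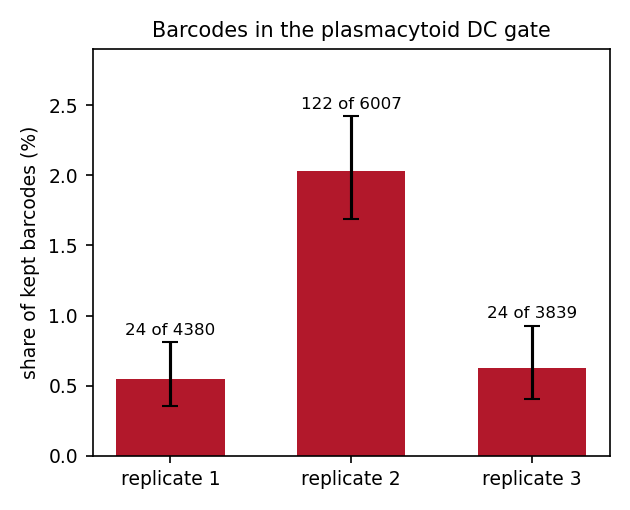
Share of kept barcodes in the pDC gate, in percent (y axis), for each library (x axis). Bars are the shares, error bars the 95% Clopper-Pearson intervals, and the numbers above are barcodes. Replicate 2, at 2.03%, stands above the 0.548% and 0.625% of the others, whose intervals overlap.

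pDCs were 24 of 4380 kept barcodes in replicate 1 (0.548%, 95% Clopper-Pearson interval 0.351 to 0.814%), 122 of 6007 in replicate 2 (2.03%, 1.69 to 2.42%) and 24 of 3839 in replicate 3 (0.625%, 0.401 to 0.929%). The mean was 1.07% ± 0.835 (SD, n = 3). Intervals cover counting error only. Replicate 2 therefore gave 122 of the 170 barcodes, and its share lay outside the intervals of the other two. Without the 3 exclusions the shares became 0.548%, 2.75% and 0.651%. With 1 group there is nothing to test the shares against.

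Against cDCs, 1324 of the 4712 genes tested differed at an adjusted p under 0.05 (edgeR's quasi-likelihood test on sums per library, Benjamini-Hochberg), which is 28.1% of them. Of these, 603 were higher in pDCs (12.8%) and 721 lower (15.3%), and the 18 genes used to build the gates are not counted. Scaling by library totals alone moved the median difference of all genes from -0.04 to 0.13 on the log2 scale and turned the split to 773 higher and 577 lower. Without replicate 2, 829 of 3680 genes tested passed. The shares of 12.8% and 15.3% are the background for the list counts against cDCs below with all barcodes and libraries. Against all other barcodes the shares were 15.4% higher and 18.8% lower. Counts under other settings have other backgrounds. Without replicate 1, 493 of 5210 genes tested were higher than in cDCs and 540 lower. Without replicate 2, 362 of 3680 were higher and 467 lower, and without replicate 3, 573 of 5191 and 629.

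The genes furthest above cDCs included Klk1b27, a kallikrein beside the gate gene Klk1, with which it may share reads. Slpi encodes a secreted inhibitor of leukocyte proteases and lies on chr2:164354070-164389095 of GRCm38. It measured 3320.2, 2443 and 4233 CPM in pDCs of replicates 1, 2 and 3 and 10.7, 26.4 and 32.1 CPM in cDCs. Every pDC sum exceeded every cDC sum by far, and the log2 difference was 6.95 ± 0.33 (edgeR adjusted p = 1.38e-09). Ctsl, a lysosomal protease that also processes endosomal TLRs (chr13:64359337-64370890), stood at 1156, 427 and 2107 CPM against 7.14, 14.2 and 18.3 CPM (log2 difference 6.02 ± 0.45, adjusted p = 9.71e-08). Its pDC levels were unequal among libraries, lowest in replicate 2, yet all lay above the cDC range. The other genes among the 10 furthest above were Cd8a, Ptprcap, Lair1, Ly6c2, Ly6c1, Runx2 and Spib, with log2 differences from 4.63 to 5.97.

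Promoter sequences of the genes named highest were looked up in RefSeq (GRCm38.p6), because 3 of the pDC factors bind known letters. Of 14 genes, 11 matched, giving 15 windows of 250 bases before a start site. Smim5, Lefty1 and Ptprcap had no entry. Searched on both strands were the E-box CACCTG (reverse CAGGTG) of TCF4 and its relatives, GAGGAAGT (reverse ACTTCCTC) of SPIB and PU.1, and a pair of GAAA spaced by 2 bases (reverse, a pair of TTTC) of interferon regulatory factors. CACCTG was in 1 of the 15 windows, against 17.2% of 32851 windows in the table. GAGGAAGT was in 3 windows, of the paralogs Ly6c1 and Ly6c2, against 2.44%. The windows of Ly6c2 overlap each other and not those of Ly6c1. The spaced pair was in 2 overlapping windows of Rnase6, against 2.98%. The windows of Slpi (chr2:164356508-164356757, minus strand) and Ly6c2 (chr15:75111972-75112221, minus strand) are printed 5′ to 3′ because these genes are among the furthest above cDCs and each holds a match, shown in capitals, that begins 45 bases before the Slpi start and 108 bases before the Ly6c2 start.
Slpi: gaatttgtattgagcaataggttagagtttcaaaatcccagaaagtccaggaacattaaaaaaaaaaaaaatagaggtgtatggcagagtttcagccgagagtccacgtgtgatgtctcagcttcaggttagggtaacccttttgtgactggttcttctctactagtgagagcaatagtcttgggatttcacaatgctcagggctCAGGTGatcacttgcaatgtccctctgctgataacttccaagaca
Ly6c2: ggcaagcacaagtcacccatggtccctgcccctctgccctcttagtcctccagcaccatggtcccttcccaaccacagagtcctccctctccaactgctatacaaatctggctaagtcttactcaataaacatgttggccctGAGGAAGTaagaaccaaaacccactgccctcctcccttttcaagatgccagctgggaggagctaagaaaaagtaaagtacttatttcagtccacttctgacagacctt
Neither printed window lies in an annotated exon. The other windows with a match hold exon bases: 83 in Ly6c1, 31 in Ly6c2, and 215 and 188 in Rnase6. A match of letters is a description, not a binding site.

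The genes furthest below cDCs were led by the T cell chemokine Ccl5, which measured 33, 24.5 and 28.7 CPM in pDCs and 2122, 1669 and 2128 CPM in cDCs (log2 difference -6.39 ± 0.29, edgeR adjusted p = 1.38e-09). That difference rests on migratory cDCs: with a cDC gate from Xcr1, Clec9a and Cd209a only it was -0.49 (adjusted p = 0.449). S100a4, a calcium-binding protein, was at 0, 8.15 and 9.58 CPM against 325, 445 and 706 CPM (-6.15 ± 0.44, adjusted p = 5.48e-08). Plbd1, Id2, Bcl2a1b, AW112010, Naaa, Tbc1d4, Ccl6 and Bcl2a1a completed the 10, with differences from -4.27 to -5.17. Bcl2a1a and Bcl2a1b are near-identical copies, between which reads can be split.

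pDC transcription factors were mostly higher. They were chosen as factors known from pDCs, so their direction is a check of the label, though not one independent of these data. Tcf4, Irf8, Irf7, Spib and Runx2 were already among the pDC markers used for that check. Of 15 listed, 13 were tested, 8 were higher than in cDCs, 1 was lower and 4 did not pass, with a median log2 difference of 1.25 against -0.04 over all genes tested. Tcf4 measured 1057, 755 and 757 CPM in pDCs and 67.9, 32.5 and 68.8 CPM in cDCs, a log2 difference of 3.79 ± 0.29 (edgeR adjusted p = 1.36e-07). Runx2, which supports pDC release from bone marrow, was nearly level across the pDC sums, at 413, 416 and 431 CPM, and at 14.3, 12.2 and 13.8 CPM in cDCs (4.83 ± 0.32, adjusted p = 2.73e-08). Spib, an Ets factor shared with B cells, was at 314, 215 and 287 CPM against 10.7, 8.12 and 9.17 CPM. In these 3 genes the lowest pDC library stood more than 10 times above the highest cDC library, so that no ranges overlapped.

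Irf8, needed by both pDCs and cDC1 cells, was the most abundant factor of the list in pDCs in CPM, a scale that does not adjust for transcript length. It was at 3006, 2241 and 3179 CPM in pDCs and 1489.6, 922 and 761 CPM in cDCs (1.22 ± 0.23, adjusted p = 0.000742). Irf7, the factor that drives interferon-alpha genes once TLRs signal, was at 628, 731 and 1245 CPM against 279, 374 and 248 CPM (1.25 ± 0.23, adjusted p = 0.000572). Both were higher in pDCs in every library, by a smaller margin than Tcf4 or Runx2. Bcl11a, which sustains Tcf4 expression, and Mef2c, a factor of lymphoid potential, had log2 differences of 2.80 ± 0.28 and 2.61 ± 0.23. Ets1 was at 182, 46.2 and 38.3 CPM in pDCs with only 3 UMIs in cDCs, a ratio of 19.8 (6.2 to 101) by counting error. Cbfa2t3, the TCF4 cofactor also called ETO2, was the member that was lower, at 82.6, 106 and 67 CPM in pDCs and 211, 181 and 188 CPM in cDCs (-1.28 ± 0.29, adjusted p = 0.00302). All other barcodes had it at 21.2, 28.4 and 15.5 CPM, and against these it was higher in pDCs (adjusted p = 7.06e-05). Zeb2, Ikzf1 and Nfkbid were among those that did not pass, with differences of 0.49 ± 0.30, 0.78 ± 0.35 and -0.21 ± 0.36. Without replicate 3, Ikzf1 passed as higher (1.16, adjusted p = 0.0168).

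Factors of conventional and migratory dendritic cells were lower: 9 of 11 tested, with 0 higher and a median of -1.97. They were chosen as factors known from those cells, so their direction is likewise a check of the gates, again not independent of these data. Id2, the antagonist of E proteins such as TCF4, fell from 1554, 1369 and 1064 CPM in cDCs to 49.6, 43.5 and 28.7 CPM in pDCs (-5.16 ± 0.25, adjusted p = 1.63e-09). Batf3, required by cDC1 cells, had 1 UMI in all pDCs and stood at 271, 309 and 183 CPM in cDCs. Zbtb46, which marks the conventional lineage, had 0 UMIs in pDCs and was at 25, 22.3 and 36.7 CPM in cDCs, at least 4.66-fold lower against a floor of 3 counts over the pDC sum; it was too low to be tested. Spi1, encoding PU.1, was at 82.6, 76.1 and 57.5 CPM against 507, 554 and 546 CPM (-3.07 ± 0.24, adjusted p = 1.62e-07). With the cDC gate from Xcr1, Clec9a and Cd209a only, 5 of these genes were lower, where 606 of all 4684 genes tested were. How many genes of this list were tested under that gate is not given. Relb, of the migratory state, moved there from -3.73 to -1.13 (adjusted p = 0.195).

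**Figure D2:**
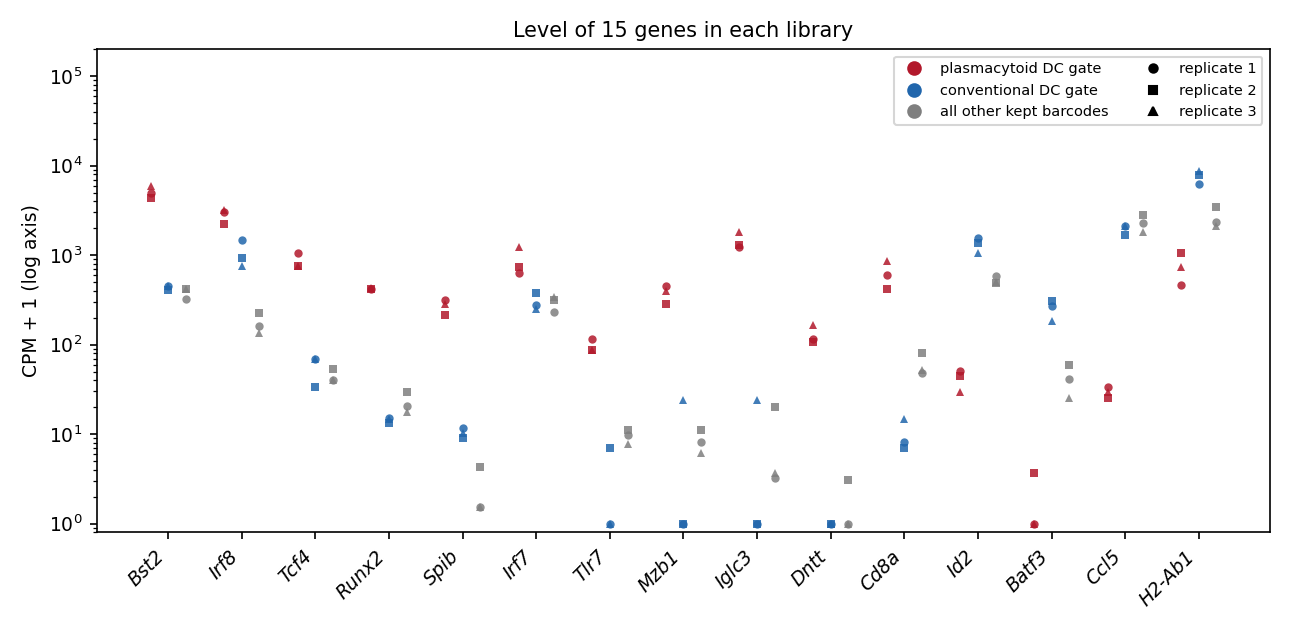
Level of 15 genes in CPM plus 1 (y axis, log scale) in each library. Colours are the pDC gate, the cDC gate and all other kept barcodes, and marker shapes are the replicates. Bst2 in pDCs lies between 4407 and 5870.5 CPM, above every cDC and other value, while Id2, Batf3, Ccl5 and H2-Ab1 lie below the cDC values in all 3 libraries.

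Surface and secretory genes known from pDCs were higher almost throughout. Of 22 tested outside the gate, 21 were higher than in cDCs and 0 lower, with a median of 4.67 (4.46 with the 1 gene at 0 UMIs in cDCs put at its lower bound), and 21 were higher than in all other barcodes. These members were chosen as pDC markers, so their direction is a check of the label, though not one independent of these data. Bst2, the tetherin that holds budding virus at the cell surface and is the antigen of pDC antibodies, lies on chr8:71534255-71537456. It measured 4955, 4407 and 5870.5 CPM in pDCs and 454, 404 and 449 CPM in cDCs (3.31 ± 0.16, edgeR adjusted p = 1.63e-09). Ly6c2 was at 2478, 2029.6 and 3572 CPM against 17.9, 85.3 and 101 CPM (5.14 ± 0.34), and reads of Ly6c1 and Ly6c2 may be split between these paralogs. All 3 pDC sums of both genes exceeded all cDC sums.

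Inhibitory receptors were part of the list. Lair1, an inhibitory receptor for collagen, was at 1074, 644 and 1025 CPM in pDCs and 7.14, 28.4 and 9.17 CPM in cDCs (5.45 ± 0.36). Lag3, a checkpoint receptor also found on exhausted T cells, was at 248, 149 and 192 CPM against 7.14, 12.2 and 9.17 CPM (3.94 ± 0.41). Both were higher in every pDC library. Cd8a, the T cell coreceptor chain that mouse pDCs can carry, had a UMI in 95 of 170 barcodes and stood at 595, 418 and 862 CPM against 7.14, 6.09 and 13.8 CPM, and the gate had admitted no Cd3 transcript. Cd4 had a UMI in 50 barcodes and 2 UMIs in cDCs, a ratio of 68.8 (18.4 to 578) by counting error. Pacsin1, a membrane-bending protein of interferon secretion in pDCs, was at 198, 283 and 364 CPM with 3 UMIs in cDCs (ratio 95.4 (32 to 468)). Atp1b1, the beta chain of the sodium pump, was at 644, 538 and 996 CPM with 2 UMIs in cDCs (ratio 317 (87 to 2627)). Cdh5, the cadherin best known from endothelium and on the stroma marker list, was chosen after its values were seen: it was at 198, 196 and 182 CPM in pDCs and had 0 UMIs in cDCs, at least 63.8-fold higher against the floor of 3 counts over the cDC sum. Cd209d was the member that did not pass, at 0.35 ± 0.35 (adjusted p = 0.512). Over the 91 barcodes that passed the marker screen, 20 of 21 tested were higher, where 519 of all 3879 genes tested were.

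Lymphoid and B-lineage genes were higher in 9 of 14 tested, with 0 lower than in cDCs and a median of 3.97. Spib and Ly6d of this list are also among the pDC markers used to check the label. Dntt, which encodes the terminal transferase that adds bases to antigen receptor joints, was at 116, 106 and 163 CPM in pDCs with 0 UMIs in cDCs, at least 39-fold higher. It passed with edgeR (adjusted p = 0.00133) and not with DESeq2 (adjusted p = 0.202). The immunoglobulin heavy chain Ighm was at 958, 910.2 and 1092 CPM against 67.9, 89.4 and 73.4 CPM (3.44 ± 0.21), and the light chain gene Iglc3 at 1239, 1312 and 1829 CPM against 0, 0 and 22.9 CPM (8.23 ± 0.84). Both exceeded the cDC values in all libraries, though light chain genes are alike and reads can be split among them. In B cell-gated barcodes Igkc averaged 61490 CPM and Iglc3 817 CPM, whereas in pDCs Igkc was at 710.3, 842 and 929 CPM and Iglc3 stood above it in each library. Of the genes that define B cells, Cd79a, Ms4a1, Pax5, Ebf1 and Pou2af1 had no UMI in the pDC sums. Of the 8 B cell markers above, 2 had UMIs. Rag1 and Rag2 had none in any class. Blnk, the adaptor below the B cell receptor that also serves Siglec-H signalling, was at 264, 242 and 316 CPM against 7.14, 4.06 and 27.5 CPM (4.50 ± 0.39).

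**Figure D3:**
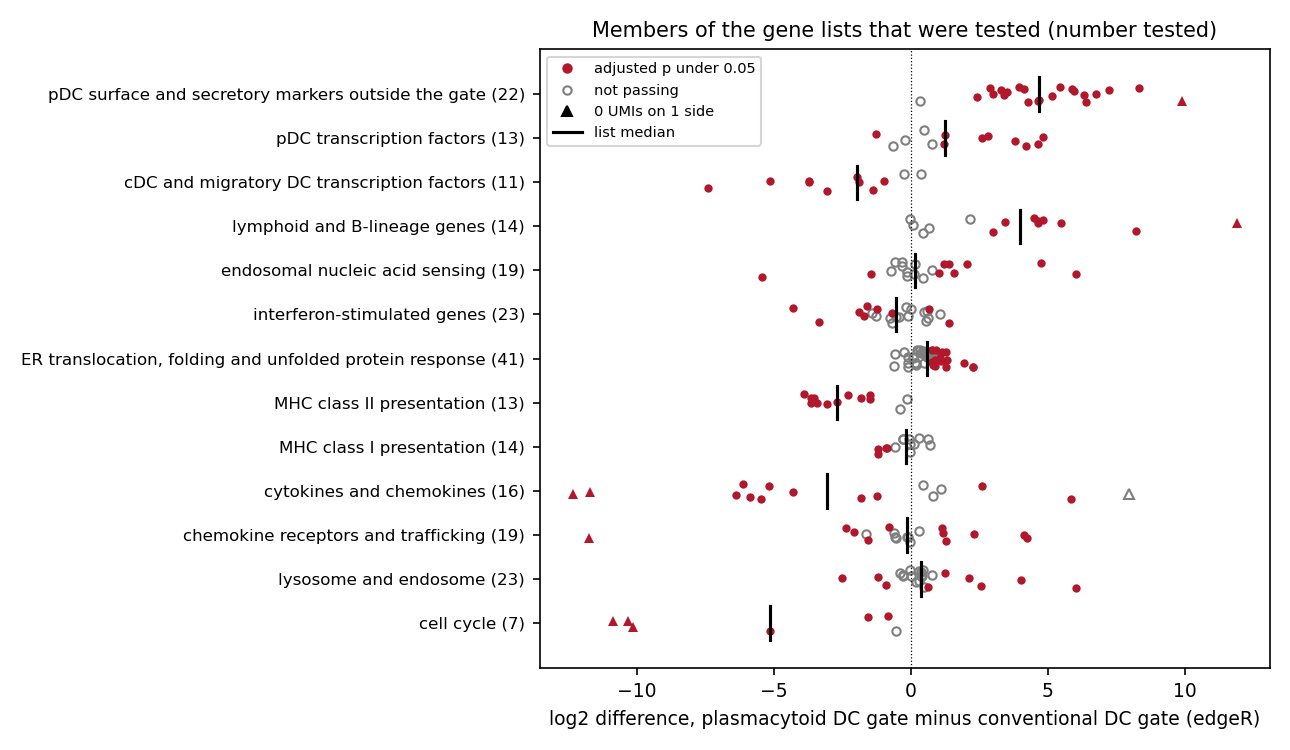
Difference between pDCs and cDCs on the log2 scale (x axis) for the tested members of 13 gene lists (y axis, number tested in brackets). Filled symbols passed an adjusted p of 0.05, open ones did not, black bars are list medians, and triangles are genes with 0 UMIs on 1 side, whose fitted value depends on the prior count. pDC surface genes lie to the right (median 4.67), and major histocompatibility complex (MHC) class II (median -2.70) and cytokine genes (median -3.07) to the left.

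The machinery that senses nucleic acids in endosomes was partly higher: 7 of 19 tested were higher than in cDCs and 2 lower, with a median of 0.15, and 10 were higher than in all others. Tlr7, the receptor for single-stranded RNA, was at 116, 86.9 and 86.2 CPM in pDCs with 3 UMIs in cDCs (edgeR adjusted p = 3.40e-05). The ratio was 29.7 (9.58 to 149) by counting error. Tlr9, the receptor for unmethylated DNA, had 2 UMIs in all pDCs and 0 in cDCs, too few for a comparison at this depth. Tlr3, the receptor for double-stranded RNA, showed the reverse of Tlr7, with 1 UMI in pDCs and 118, 69 and 50.4 CPM in cDCs (adjusted p = 5.85e-05). Unc93b1, the escort of these receptors to endosomes, was at 529, 440.1 and 804 CPM against 193, 209 and 238 CPM (1.21 ± 0.21). Pld4, an exonuclease that trims DNA in endosomes, was at 925, 573 and 1149 CPM against 161, 278 and 289 CPM (1.59 ± 0.27), and the transporter Slc15a4 had a difference of 1.40 ± 0.34. The signalling genes downstream did not pass: Myd88 was at -0.13 ± 0.42, Irak4 at -0.31 ± 0.44 and Irak1 at -0.72 ± 0.44. Irf5 was lower, at -1.47 ± 0.24 (adjusted p = 0.000196). With every barcode thinned to 1000 UMIs, 8 of these genes were tested and 4 were higher, where 212 of all 1609 genes tested were.

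No interferon ligand transcript was found in pDCs. The 20 listed genes of interferons alpha, beta, epsilon, kappa, zeta and lambda had 0 of 533018 UMIs, which allows a level of up to 5.63 CPM, and 0 in cDCs. Among the other barcodes 3 UMIs were found, all of Ifnb1. The receptor chains were detected: Ifnar1 stood at 215, 220.1 and 239 CPM in pDCs and 53.6, 56.9 and 41.3 CPM in cDCs (1.91 ± 0.25, adjusted p = 3.31e-05), and Ifnar2 at 396, 272 and 441 CPM against 85.7, 126 and 78 CPM (1.59 ± 0.25, adjusted p = 0.000177). Both chains were higher in pDCs in all 3 libraries.

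Of 23 interferon-stimulated genes tested, 2 were higher than in cDCs and 7 lower, with a median of -0.53. Of all genes tested, 12.8% were higher and 15.3% lower. Without replicate 2 the lower count was 4, and without replicate 1 the higher count was 1. Ifitm3, which blocks viral fusion, was at 149, 323 and 287 CPM in pDCs and 1665, 2467 and 3054 CPM in cDCs (-3.35 ± 0.20, adjusted p = 1.16e-08). Isg15, a ubiquitin-like modifier, was at 215, 226 and 306 CPM against 329, 299 and 404 CPM (-0.68 ± 0.21, adjusted p = 0.0236), a call that was lost without any 1 of the libraries (adjusted p from 0.0555 to 0.139). Isg15 averaged 3956 CPM in neutrophil-gated barcodes. Ifi203, of the DNA-sensing p200 family, was at 281, 215 and 345 CPM against 64.3, 85.3 and 115 CPM (1.40 ± 0.25, adjusted p = 0.000572), and Ifi27l2a, the most abundant member in CPM, at 2742, 2529 and 2892 CPM against 1204, 1458 and 1802 CPM (0.66 ± 0.15, adjusted p = 0.00301). Both were higher than in cDCs, but without replicate 1 Ifi27l2a was at 0.53 and did not pass (adjusted p = 0.110). Against all other barcodes 4 were higher, near the 15.4% of all genes tested, and 11 lower, where 18.8% of all genes were. The median was -1.06, and without replicate 3 the higher count was 1. Neutrophils, whose levels of Isg15, Ifit1 and Rsad2 were the highest of the gated classes, are among those other barcodes.

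Genes of protein entry into the endoplasmic reticulum (ER), folding and the unfolded protein response leaned higher: 16 of 41 tested were higher than in cDCs and 0 lower, with a median of 0.59. The count fell to 8 without replicate 1 and 10 without replicate 3. Xbp1, the factor that expands the secretory apparatus in plasma cells, was at 611, 394 and 718 CPM in pDCs and 96.4, 109.7 and 68.8 CPM in cDCs (2.28 ± 0.25, adjusted p = 6.25e-06). Edem2, which marks misfolded glycoproteins for removal, was at 215, 141 and 345 CPM against 32.1, 48.7 and 59.6 CPM (1.96 ± 0.31). Both were higher in every pDC library. Mzb1, a chaperone of antibody-secreting cells, was at 446, 285 and 393 CPM against 0, 0 and 22.9 CPM (5.90 ± 0.62), while averaging 1769 CPM in B cell-gated barcodes. Pdia4, an ER oxidoreductase, was at 182, 5.43 and 172 CPM in pDCs and 25, 0 and 36.7 CPM in cDCs; in replicate 2 it was near 0 in every class, 5.99 CPM in all others included. Its difference passed with the library as a block (2.26 ± 0.48, adjusted p = 0.00205) and not without it (1.93, adjusted p = 0.466). The main chaperones did not pass, with Hspa5 at 0.59 ± 0.26 and Calr at -0.57 ± 0.21; without replicate 2, Hspa5 passed as higher (1.11, adjusted p = 0.0113).

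Of 23 lysosome and endosome genes tested, 6 were higher than in cDCs, where 12.8% of all genes tested were. Lower were 3, near the 15.3% of all genes, and the median was 0.36. Beside Ctsl, Grn, which encodes the secreted and lysosomal progranulin, was at 1487, 1081 and 2030.2 CPM against 179, 246 and 225 CPM (2.55 ± 0.22, adjusted p = 4.31e-07), and Ctsb, a cysteine protease, had a difference of 2.13 ± 0.26. The cholesterol exporter Npc1 was at 132, 128 and 115 CPM against 10.7, 8.12 and 0 CPM (4.01 ± 0.45). All 3 were higher in every library. Cd63, a tetraspanin of late endosomes, was lower, at 66.1, 46.2 and 9.58 CPM against 296, 156 and 248 CPM (-2.50 ± 0.36), and with the cDC gate from Xcr1, Clec9a and Cd209a only its difference was 0.56 (adjusted p = 0.473).

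Antigen presentation by MHC class II was lower in pDCs: 11 of 13 tested were lower than in cDCs and 0 higher, with a median of -2.70. The chain H2-Ab1 was at 463, 1068 and 728 CPM in pDCs and 6212, 7776 and 8699 CPM in cDCs (-3.54 ± 0.21, edgeR adjusted p = 1.12e-08). The invariant chain Cd74 was at 3601, 4622 and 4032 CPM against 19400.2, 21719 and 26812 CPM (-2.70 ± 0.15), and the protease inhibitor Cst3 at 1222, 1144 and 1676 CPM against 19893, 15992 and 16260.2 CPM (-3.91 ± 0.16). Within pDCs H2-Ab1 was highest in replicate 2, the library in which macrophage markers were highest as well (734 CPM), and their part in it was not tested. H2-Aa had a UMI in 125 of 170 pDC barcodes. H2-Oa, which restrains peptide exchange, did not pass against cDCs (-0.15 ± 0.42) and was higher than in all others (2.14 ± 0.42), where 8 class II genes were lower. With the same exclusions applied to the other barcodes, H2-Oa was at 0.88 and did not pass (adjusted p = 0.115). Over the 91 barcodes that passed the marker screen, 11 class II genes were again lower, where 602 of all 3879 genes tested were.

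MHC class I genes differed less, with 0 of 14 tested higher than in cDCs, 4 lower and a median of -0.16. The 4 were the peptide transporters Tap1 and Tap2 and the proteasome genes Psmb9 and Psme2, from -0.87 to -1.21, and the count became 1 without replicate 1 or without replicate 2. The heavy chain H2-D1 was at 3320.2, 2739 and 4913 CPM in pDCs and 2808, 3320.2 and 3302 CPM in cDCs (-0.03 ± 0.16), and B2m at 3287, 3994 and 5305 CPM against 2933, 4175 and 4067 CPM (-0.06 ± 0.14). Their ranges overlapped.

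Among costimulatory and checkpoint molecules, 2 of 15 tested were higher than in cDCs, near the 12.8% of all genes tested. Lower were 4, where 15.3% of all genes were, with a list median of -0.23. Without replicate 2 the lower count was 2. Cd86, a ligand of CD28 on T cells, was at 33, 16.3 and 28.7 CPM in pDCs and 236, 179 and 82.5 CPM in cDCs (-3.15 ± 0.43, adjusted p = 4.59e-05). Cd40, through which T cells license dendritic cells, had 0 UMIs in pDCs and was at 60.7, 46.7 and 55 CPM in cDCs, at least 9.33-fold lower. Beside Lag3, Cd47, the signal that restrains phagocytes, was higher, at 1437, 926 and 1302 CPM against 486, 479 and 459 CPM (1.11 ± 0.18, adjusted p = 0.000197). Transcripts linked to tolerogenic or cytotoxic pDCs in other settings were at 0 UMIs in all 170 barcodes, namely Ido1, Gzmb and Tnfsf10. For each of them this allows up to 5.63 CPM.

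Of 16 cytokine and chemokine genes tested, 2 were higher than in cDCs, near the 12.8% of all genes tested. Lower were 10, where 15.3% of all genes were. The list median was -3.07 (-2.86 with genes at 0 UMIs on 1 side put at their bounds). Ccl4, a chemokine for T cells and monocytes, was at 1156, 2062 and 1753 CPM in pDCs and 214, 266 and 225 CPM in cDCs (2.62 ± 0.25, adjusted p = 1.28e-06). Neutrophil-gated barcodes averaged 4636 CPM of Ccl4, and neutrophil markers in pDCs stood at 644, 1011 and 172 CPM. Over the 91 barcodes that passed the marker screen Ccl4 was at 944, 2312 and 1058 CPM. Il12a, the p35 chain shared by interleukins 12 and 35, was at 116, 51.6 and 67 CPM with 1 UMI in cDCs (ratio 61.3 (10.3 to 2495)). Il12b, its p40 partner in interleukin 12, showed the opposite, with 0 UMIs in pDCs and 121, 73.1 and 55 CPM in cDCs, at least 14.7-fold lower. The lower genes included Ccl22, with 0 UMIs in pDCs and at least 26.4-fold lower, and Cxcl16, at 0, 24.5 and 0 CPM against 647, 518 and 394 CPM (-5.19 ± 0.40). Il1b was at 82.6, 579 and 67 CPM in pDCs, highest in replicate 2, and neutrophil-gated barcodes averaged 15269 CPM of it. Over the 91 barcodes it was at 108, 103 and 71.7 CPM.

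Trafficking genes split into 6 higher and 5 lower than in cDCs of 19 tested (median -0.14), and without replicate 2 into 3 and 3. S1pr4, a receptor for the egress lipid sphingosine 1-phosphate, was at 82.6, 92.4 and 86.2 CPM in pDCs and 0, 4.06 and 9.17 CPM in cDCs (4.25 ± 0.55, adjusted p = 3.12e-05). Itgae, the integrin of tissue-lodged cDC1 cells, had 0 UMIs in pDCs and was at 175, 81.2 and 78 CPM in cDCs, at least 19-fold lower. Ccr2, which draws cells into tumours, did not pass, at 379.9, 242 and 229.8 CPM against 211, 339 and 518 CPM (-0.59 ± 0.30), though it passed as lower without replicate 1 (-1.02, adjusted p = 0.0285). Beside S1pr4, the higher genes included Selplg, Itgal and Cd44. Without replicate 2, Itgal (adjusted p = 0.0698) and Cd44 (adjusted p = 0.0566) did not pass. Beside Itgae, the lower genes were Itgam, Ccr1, Icam1 and Itga4, each of which lost its call without at least 1 of the libraries (adjusted p from 0.0732 to 0.230).

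Of 21 growth factor and cytokine receptors tested, 5 were higher and 7 lower than in cDCs (median -0.38, or -0.28 with the 1 gene at 0 UMIs on 1 side put at its bound), and without replicate 1 the lower count was 4. Flt3, the receptor whose ligand drives dendritic cell development, was at 132, 76.1 and 220.3 CPM in pDCs and 85.7, 44.7 and 82.5 CPM in cDCs; the difference did not pass (0.73 ± 0.41, adjusted p = 0.210), while against all others it was 4.71 ± 0.43 (adjusted p = 4.19e-07). Tgfbr1, a receptor chain for TGF-beta, was higher, at 165, 130.4 and 115 CPM against 25, 24.4 and 27.5 CPM (2.20 ± 0.32, adjusted p = 7.80e-05). Il7r, a receptor of lymphoid progenitors, was higher, at 347, 288 and 364 CPM against 60.7, 42.6 and 41.3 CPM (2.60 ± 0.25, adjusted p = 1.62e-06). Csf2ra, the alpha chain for the growth factor GM-CSF, was lower (-2.16 ± 0.31), whereas Csf2rb2, a beta chain of the interleukin 3 receptor, was higher (2.04 ± 0.27). Ifngr1, a chain of the interferon-gamma receptor, was at 33, 24.5 and 28.7 CPM against 171, 109.7 and 211 CPM (-2.66 ± 0.36, adjusted p = 4.87e-05).

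Receptors that signal through immune tyrosine motifs gave 6 higher and 6 lower of 21 tested (median -0.41). Tyrobp, the adaptor DAP12 with which Siglec-H pairs, was at 5881, 6214 and 6445 CPM in pDCs and 1186, 2010.4 and 1944 CPM in cDCs (1.65 ± 0.15, adjusted p = 6.97e-07). Its counterpart Fcer1g was at 710.3, 940.1 and 804 CPM against 639, 1168 and 1568 CPM (-0.60 ± 0.20, adjusted p = 0.0380). Tyrobp was higher in every library, and Fcer1g was lower in replicates 2 and 3 only. Without replicate 3, Fcer1g was at -0.26 and did not pass (adjusted p = 0.361). The phosphatase Ptpn6 was higher (1.92 ± 0.24) and the Fc receptor Fcgr3 lower (-2.21 ± 0.45).

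Genes of transitional dendritic cells, which share traits of pDCs and cDCs, were higher in 0 of 9 tested (median -2.45) and lower than in cDCs in 5, namely Crip1, Tmem176b, Lyz2, Cd81 and Ms4a4c, the last of which did not pass without replicate 2 (-1.75, adjusted p = 0.0631). Cx3cr1 had UMIs in 1 of 170 pDC barcodes. Lyz2, the lysozyme of macrophages, was at 49.6, 196 and 67 CPM in pDCs and 414, 1371 and 2215 CPM in cDCs (-3.44 ± 0.48, adjusted p = 5.23e-05), and had a UMI in 24 pDC barcodes. Of 18 cell cycle genes 7 were tested, of which 6 were lower than in cDCs and 0 higher. Of the 7 tested, 3 had 0 UMIs in pDCs. These entered the test only through the sums where they are present, so they could not come out as higher. Birc5, at 0 UMIs in pDCs, lost its call without replicate 2 (adjusted p = 0.0647). Mki67, Top2a, Cdk1 and Ccnb2 had no UMI in pDCs, and the upper limit for barcodes with a Mki67 UMI was 2.15%. Top2a was at 50, 42.6 and 22.9 CPM in cDCs, at least 7.18-fold higher than the pDC floor. The subunits of cytochrome c oxidase outside the gate, the complex to which Cox6a2 belongs, had 0 of 11 higher (median -0.35). The 2 lower, Cox6b1 and Cox8a, were near the 15.3% of all genes tested that were lower. Without replicate 1 none was lower. Of 19 glycolysis and hypoxia genes, 5 were lower than in cDCs (3 without replicate 1 or without replicate 2) and 16 were lower than in all others, with none higher.

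Against all other kept barcodes, 1615 of 4712 genes differed (34.3%), 727 higher in pDCs (15.4%) and 888 lower (18.8%). The other barcodes were 3554 T cell-gated, 2287 macrophage-gated, 1851 neutrophil-gated, 374 epithelial, 279 NK and 60 B cell-gated, with 5435 unassigned. Since the pDC gate excludes C1q, S100 and Cd3 transcripts, lower levels of macrophage, neutrophil and T cell genes follow in part from the choice. The 5 highest genes were Atp1b1, Klk1b27, Smim5, Lefty1 and Rnase6, with log2 differences from 5.97 to 6.94. Smim5, a small membrane protein gene, was at 496, 361 and 373 CPM in pDCs and 1.70, 6.06 and 2.77 CPM in all others (6.67 ± 0.32, adjusted p = 8.86e-10). Lefty1, an inhibitor of the TGF-beta family member Nodal, was at 413, 454 and 297 CPM against 5.30, 7.38 and 4.09 CPM (6.04 ± 0.21, adjusted p = 6.81e-11). Rnase6, a secreted ribonuclease, was at 2098, 1277 and 2289 CPM against 21.6, 44.1 and 20 CPM (5.97 ± 0.33), and at 257, 191 and 160.5 CPM in cDCs. In all 3 genes every pDC library lay above every library of the others.

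**Figure D4:**
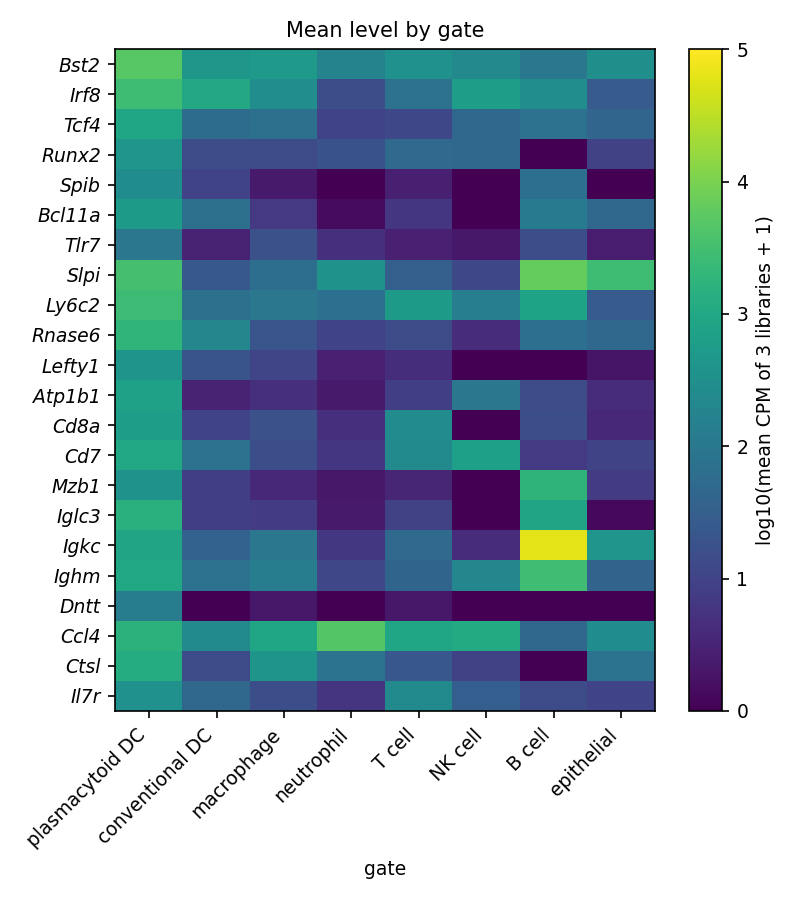
Mean level over the 3 libraries as log10 of CPM plus 1 (colour) of 22 genes (rows) in 8 gated classes (columns). Bst2, Irf8, Tcf4 and Runx2 are brightest in pDCs, whereas Slpi, Mzb1, Igkc and Ighm are brightest in B cell-gated barcodes and Ccl4 in neutrophils.

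Across the gated classes, part of the pDC profile was found in other cells. Slpi averaged 3332 ± 895 CPM (SD, n = 3) in pDCs, 6535 ± 5624 CPM in B cell-gated and 2814 ± 1083 CPM in epithelial barcodes. Cd7 averaged 988 ± 245 CPM in pDCs and 665 ± 128 CPM in NK cell-gated barcodes. Mef2c averaged 475 ± 11.1 CPM in pDCs and 641 ± 102 CPM in B cell-gated barcodes. Slpi, Cd7 and Mef2c were thus shared, and the differences between these classes were not tested. Tcf4 by contrast averaged 856 ± 174 CPM in pDCs and at most 76.1 CPM in another gated class, the B cells. Dntt was at 0 in neutrophil, epithelial, B cell and NK cell-gated barcodes and averaged 1.15 CPM in macrophage-gated and 1.09 CPM in T cell-gated barcodes.

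Among themselves the 3 pDC sums were alike in most genes. Over 682 genes with an expected count of at least 10 in every library, the median ratio of the highest to the lowest library was 1.49, and 99 genes exceeded 2-fold. Runx2 and Bst2 were among the steady ones. The 24 barcodes each of replicates 1 and 3 against 122 in replicate 2 make the former less precise, and with 1 group no test of these differences was made. Of 13 lysosome and endosome genes among the 682, 11 were lowest in replicate 2, 1 in replicate 1 and 1 in replicate 3. How many of all 682 were lowest in each library was not counted, so these 13 have no background. The highest value was in replicate 1 for 240 of the 682, in replicate 2 for 165 and in replicate 3 for 277. Ctsl was at 1156 CPM in replicate 1 (95% exact Poisson interval 901 to 1461), 427 CPM in replicate 2 (362 to 499) and 2107 CPM in replicate 3 (1838 to 2404). Psap, the saposin precursor, was at 3436, 2073 and 4108 CPM, and Grn and Ctsh followed the same order. The cDC sums of Psap, 2233, 2236 and 1577 CPM, were not lowest in replicate 2.

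**Figure D5:**
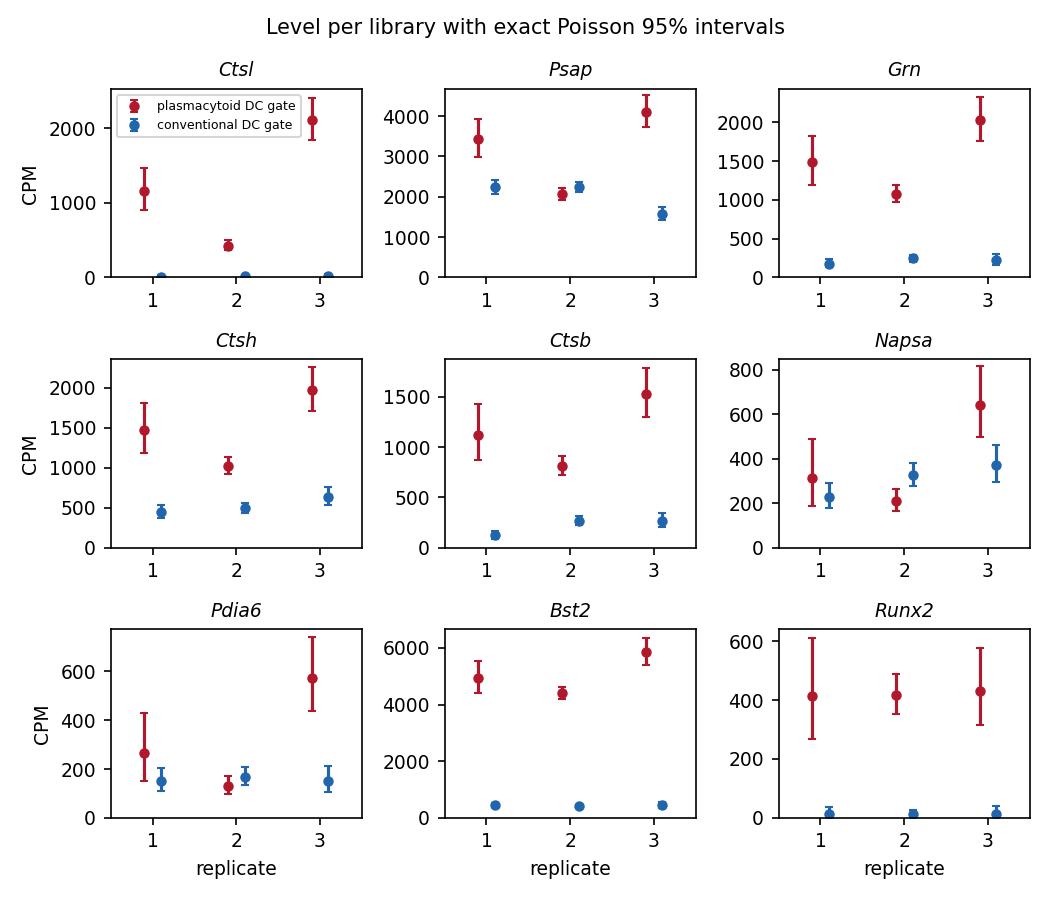
Level in CPM (y axis, from 0) of 9 genes in the pDC and cDC sums of replicates 1, 2 and 3 (x axis), with 95% exact Poisson intervals that cover counting error only. Ctsl, Psap, Grn, Ctsh, Ctsb, Napsa and Pdia6 are lowest in replicate 2 and highest in replicate 3 in pDCs, and Runx2 is level, at 413 to 431 CPM.

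Of the 682 genes, 165 were highest in replicate 2, and the next pair was chosen after their values were seen. Wfdc18, an epithelial secreted inhibitor, was at 49.6, 1872 and 38.3 CPM in pDCs and between 1404 and 2081 CPM in all other barcodes. Spp1, encoding osteopontin, was at 0, 478 and 19.2 CPM. Both were high in replicate 2 alone, where 2 pDC barcodes held at least 3 UMIs of Epcam, Krt8 and Krt18. Without those 2 barcodes, a check added after the data were seen, Wfdc18 in replicate 2 was at 29.2 CPM (10 of its 689 UMIs) and Spp1 at 146 CPM (50 of 176 UMIs), and 1318 of 4414 genes tested differed from cDCs. Over the 91 barcodes that passed the marker screen, both were at 18.2 CPM in replicate 2.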

How the data were processed

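Droplet single-cell RNA counts of 3 libraries were analysed. The deposited values are raw UMI counts per gene and barcode for 28692 genes, made with Cell Ranger on mm10, with Seurat also named, per the submitters' processing notes, which were read here without versions. Every deposited barcode held at least 500 UMIs, and 58 gene symbols occurred on more than 1 gene.

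Kept were barcodes in which 200 or more genes were detected and mitochondrial UMIs did not exceed 10% (14226 of 14336). Raw counts were summed per library and gate. Sums of pDC, cDC and other barcodes were fitted together with edgeR 4.0.16 (TMM scaling, its default filter on low counts, quasi-likelihood test, Benjamini-Hochberg over all genes tested) in R 4.3.3 with limma 3.58.1, with the library as a block, since the sums compared come from the same library. The 18 gate genes were left out of calls. Levels are CPM without adjustment for transcript length. DESeq2 1.42.0 was an alternative. On simulated counts for the comparison with cDCs (4256 genes fitted), 47% of 100 genes changed 2-fold and 89% of 100 changed 4-fold were recovered, and 2 of 4056 unchanged genes were called. Those counts were drawn from the kind of model that edgeR assumes, with 1 spread for all genes and no library effect. Genes of low level were not among those changed. The rates hold for that setting only. Gating used Python 3.11.15 with numpy 2.4.6, scipy 1.17.1, pandas 2.3.3 and scanpy 1.11.5, and figures matplotlib 3.10.9.

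Classes among the other barcodes served for levels only. They were neutrophil (S100a8 and S100a9 at 5% of UMIs or more), epithelial (at least 3 UMIs of Epcam, Krt8 and Krt18), macrophage (at least 3 of C1q), T cell (at least 1 of Cd3), B cell (at least 2 of Cd79a, Cd79b and Ms4a1) and NK cell (at least 1 of Ncr1 and Klrb1c).

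The pDC gate, 20 gene lists (433 genes) and 16 marker lists were chosen with earlier results of these data known. Genes were named by a rule: those 10 furthest above and 10 furthest below cDCs and 5 each against all others (mean log2 CPM of at least 5, same direction in every library), the 4 or fewer called list members of largest difference, or 2 of lowest p, all pDC transcription factors, and Tlr7 and Tlr9. That gave 106 genes, of which the more telling are printed, and 49 more with a fitted difference were described after their values were seen. Results of a few list members are not reported here. Alternatives changed the scaling, filter, block, gates, barcode filters, depth and the libraries entered.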

Additional observations from a re-analysis of the deposited data

How the results depend on the processing

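Depth limits these results: 170 barcodes gave 533018 UMIs, and a gene at 0 may still reach 5.63 CPM. Leaving out a library gave 829 to 1202 genes different from cDCs, against 1324 with all 3; the lowest value came without replicate 2, with 3680 genes tested. Against all other barcodes the range was 1097 to 1467, against 1615. With every barcode thinned to 1000 UMIs, only 1609 genes were tested, and 428 and 601 of them passed. The pairing is that of sums from 1 library: without the replicate block 1362 and 1708 genes passed, and among the named genes Pdia4, Isg15, Fcer1g and Itga4 lost their calls. No filter on low counts gave 1536 and 2137 genes, and DESeq2 1297 and 1587. Without the 79 barcodes that failed the marker screen, 1121 of 3879 genes differed from cDCs. With the exclusions also applied to the other barcodes 1527 differed from those. Of 2354 alternative values of named genes, 2255 kept their direction and side of the threshold, 82 lost it, 16 passed it newly and 1 changed sign: Cd63 against cDCs went from -2.50 to 0.56 (adjusted p = 0.473) with the cDC gate from Xcr1, Clec9a and Cd209a only. The cause was not tested. The mean share of pDCs was 1.07%, and 1.05 to 1.42% under the other gates and filters. It was 0.587% without replicate 2. Chosen after the data were seen were the share with no exclusions (1.32%), the removal of 2 barcodes with epithelial transcripts (1318 and 1644 genes), and the removal of gate-positive barcodes from the others (1637 genes).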
